A study of Mus musculus with 26 samples.

Results

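Striatal RNA of R6/1 mice was compared with that of wild-type mice at 10 weeks of age, in animals that had all received a control adeno-associated virus (AAV). The R6/1 transgene drives a short piece of human huntingtin, encoded by exon 1 with an expanded CAG repeat, and the line is a fragment model of Huntington's disease. The comparison used 4 of the 26 RNA-seq libraries of the study, 2 from wild-type and 2 from R6/1 striatum. The deposited table names both groups after mCherry, a red fluorescent protein, and the labels do not otherwise describe the control vector or its promoter. The genotype of each library came from its title, because the strain label reads R6/1 for both groups. The rest of the study holds R6/1 and wild-type striatum at 4 and at 8 weeks, striatum of the CHL2 knock-in line and its wild type at 1 year (3 libraries a group in each case, none described as injected), and 4 libraries of 10-week R6/1 striatum given an Elk-1 AAV. For each gene the deposited table holds 1 pooled value per group in FPKM, fragment counts scaled to transcript length and library size, so no value per library, standard deviation or refitted test can be given. The change of a gene is log2((R6/1 FPKM + 1)/(wild-type FPKM + 1)), which understates the change of low genes. The words rose and fell are kept for genes with a q-value below 0.05 in the authors' deposited table. The labels do not say whether the libraries of a group came from separate animals, so these q-values rest on library-to-library spread alone, and that spread may be technical.

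Medium spiny projection neurons make up most of the striatum. They fall into a direct pathway, marked by the D1 dopamine receptor, substance P and dynorphin, and an indirect pathway, marked by the D2 dopamine receptor, the adenosine receptor Adora2a and enkephalin. Loss of the RNAs that define these cells, before the cells themselves are lost, is a known feature of mice with mutant huntingtin. Dopamine and glutamate inputs drive immediate early genes in these neurons through the ERK kinases, the factors SRF and Elk-1 at serum response elements, and CREB at cAMP response elements. Interferon-gamma and type I interferons induce another set of genes, which includes immunity-related GTPases, guanylate-binding proteins and the proteins that present antigens on MHC molecules.

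Of 12980 listed genes, 17 microRNA and small nucleolar RNA rows were left out and the other 12963 were compared. The authors' deposited table called 94 genes higher in R6/1 and 326 lower, which is 0.724% and 2.51% of the rows. Values were about evenly split over all genes, with 6793 higher, 6170 lower and a median change of 0.014. The genes that rose had a median change of 1.02, and 49 of the 94 changed by at least 1 on the log2 scale. Genes that fell had a median change of -0.85, and 116 of the 326 reached that size. The lowest q-value the authors' deposited table gives is 0.00312, and 208 called genes have it. A gene said below to have risen or fallen at 10 weeks without a q-value has that lowest one. The table lists a gene only where 1 of the pools has an FPKM of at least 1.10, so a low gene may be listed because it was high in 1 pool, and counts and medians of lists of low genes describe the listed genes only.

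**Figure D1:**
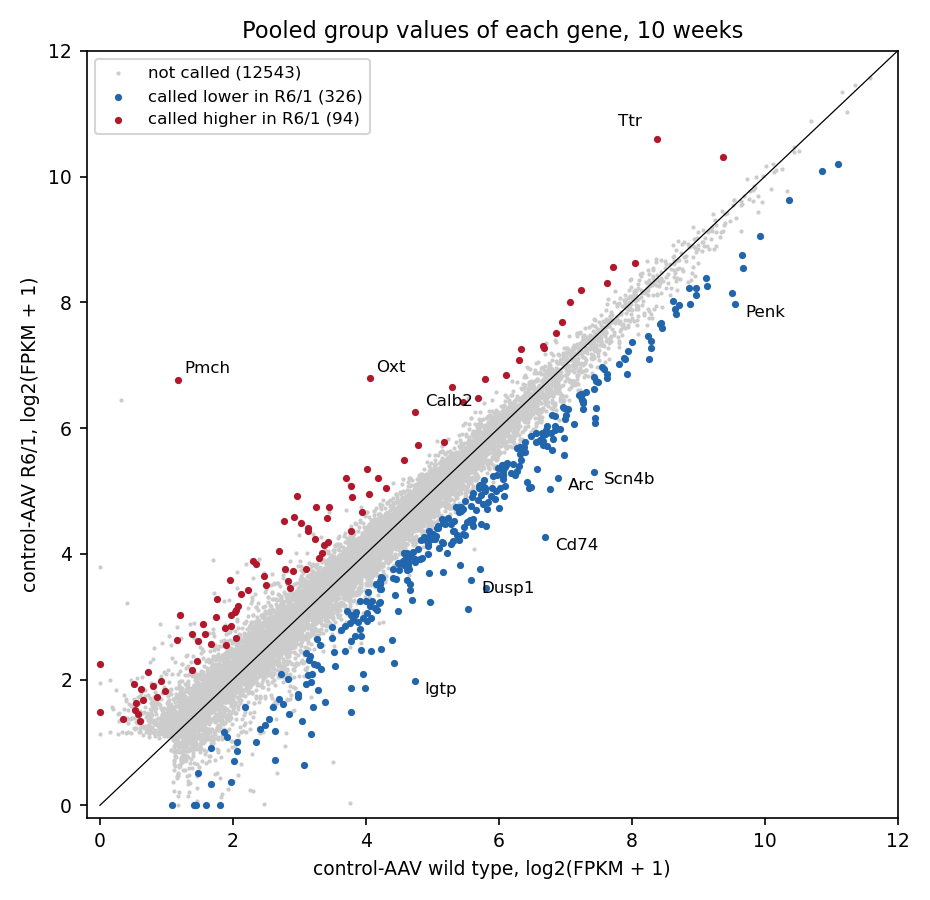
Each point is 1 gene, placed by log2(FPKM + 1) of the wild-type pool (x axis) and of the R6/1 pool (y axis), with the 326 genes called lower in blue, the 94 called higher in red and the line of equal values in black. Penk, Scn4b, Arc, Cd74 and Igtp lie below the line, and Pmch, Oxt, Ttr and Calb2 above it.

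The pools differed in other ways than the transgene. Kdm5d and Uty, which lie on the Y chromosome, had 1.70 and 1.12 FPKM in the wild-type pool and were listed at 0 in the R6/1 pool. Eif2s3y, another Y-linked gene, had 12.6 FPKM in wild type and 0.0289 in R6/1 (authors' deposited table, q = 0.866). Xist, the RNA that silences an X chromosome in females, was at 12.8 FPKM in wild type and 29.0 in R6/1. The sex of the animals is not among the labels used here, so sex and genotype cannot be told apart in these libraries. The microRNA and small nucleolar RNA rows took 12.7% of the summed FPKM in wild type and 18.6% in R6/1. Leaving those rows out of the total would raise each R6/1 value by a factor of 1.046. Without the sex-linked list the counts were 93 genes higher and 324 lower. Markers of tissue beside the striatum also differed. Those of cortex are given below with the genes that fell, and the others with the genes that rose. The striatal label was met in both pools by Ppp1r1b (816 FPKM in wild type and 374 in R6/1) and Rgs9 (100.2 and 52.3).

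Projection neuron genes had the most falls of the 41 lists. Of 40 genes that mark these neurons as a class 38 were compared, of which 23 fell and 0 rose, and all 38 had the lower value in R6/1. Their median change was -0.82, against 0.014 for all genes, and their summed level was 7177 FPKM in wild type and 3871 in R6/1. In bulk tissue, fewer cells of a type and less RNA per cell cannot be told apart. Scn4b, the beta-4 subunit of voltage-gated sodium channels, fell from 172 to 38.6 FPKM, a change of -2.13. It lies at chr9:44947124-44962144 in mm9, the build of the deposited positions. Pde10a, the phosphodiesterase that breaks down cyclic nucleotides in these neurons, fell from 54.8 to 20.7 FPKM. Ppp1r1b encodes DARPP-32, the phosphatase inhibitor through which dopamine acts on these cells, and its change was -1.12. Pde1b, a calmodulin-dependent phosphodiesterase, fell from 313 to 167 FPKM, and Adcy5, the main striatal adenylyl cyclase, from 109.5 to 59.6. Itpka, an inositol trisphosphate kinase of dendritic spines, fell from 126 to 46.6 FPKM, and Lrrc10b from 88.6 to 32.3. The calcium sensor Hpca stood at 977 FPKM in wild type and at 532 in R6/1. Rgs4 and Rgs9, which shorten G protein signals, changed by -1.07 and -0.92.

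The other 15 members did not pass the threshold, all with lower values in R6/1. Among them were Gng7, the G protein subunit paired with D1 receptors (166 and 138 FPKM), Ptpn5, the striatum-enriched tyrosine phosphatase (166 and 126 FPKM), and the transcription factors Bcl11b (24.1 and 17.6 FPKM) and Rarb (26.0 and 20.9 FPKM). In the authors' deposited table their q-values were 0.765, 0.329, 0.250 and 0.728. Foxp1, another transcription factor of projection neurons, did fall, from 23.5 to 15.2 FPKM (the authors' deposited table gives q = 0.0434).

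The 2 output pathways were measured with lists of unequal size. Of 12 indirect pathway genes, 4 fell and 0 rose, with a median change of -0.70. Penk, the enkephalin precursor, fell from 749 to 250.2 FPKM, and Adora2a, an adenosine receptor, from 94.2 to 39.6. Drd2, the D2 receptor, fell from 59.3 to 36.7 FPKM (authors' deposited table, q = 0.0389). Gpr6, an orphan receptor of the same neurons, had 23.6 FPKM in wild type and 13.4 in R6/1 without passing (authors' deposited table, q = 0.212). Of 11 direct pathway genes, 2 fell and 1 rose, and the median change was -0.18. Drd1a, the D1 receptor, fell from 39.1 to 19.5 FPKM. Chrm4, the muscarinic receptor that opposes D1 signals, had 33.3 and 16 FPKM and was called lower, but its row shares its position with another row. Tac1, the substance P precursor, stood at 239 and 210.1 FPKM, and Pdyn, the dynorphin precursor, at 37.6 and 23.7 FPKM. Neither passed, with q-values of 0.926 and 0.356 in the authors' deposited table. Dlk1, a Notch-like membrane protein placed on the direct list, rose from 5.45 to 15.5 FPKM. Whether the pathways differ was not tested.

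**Figure D2:**
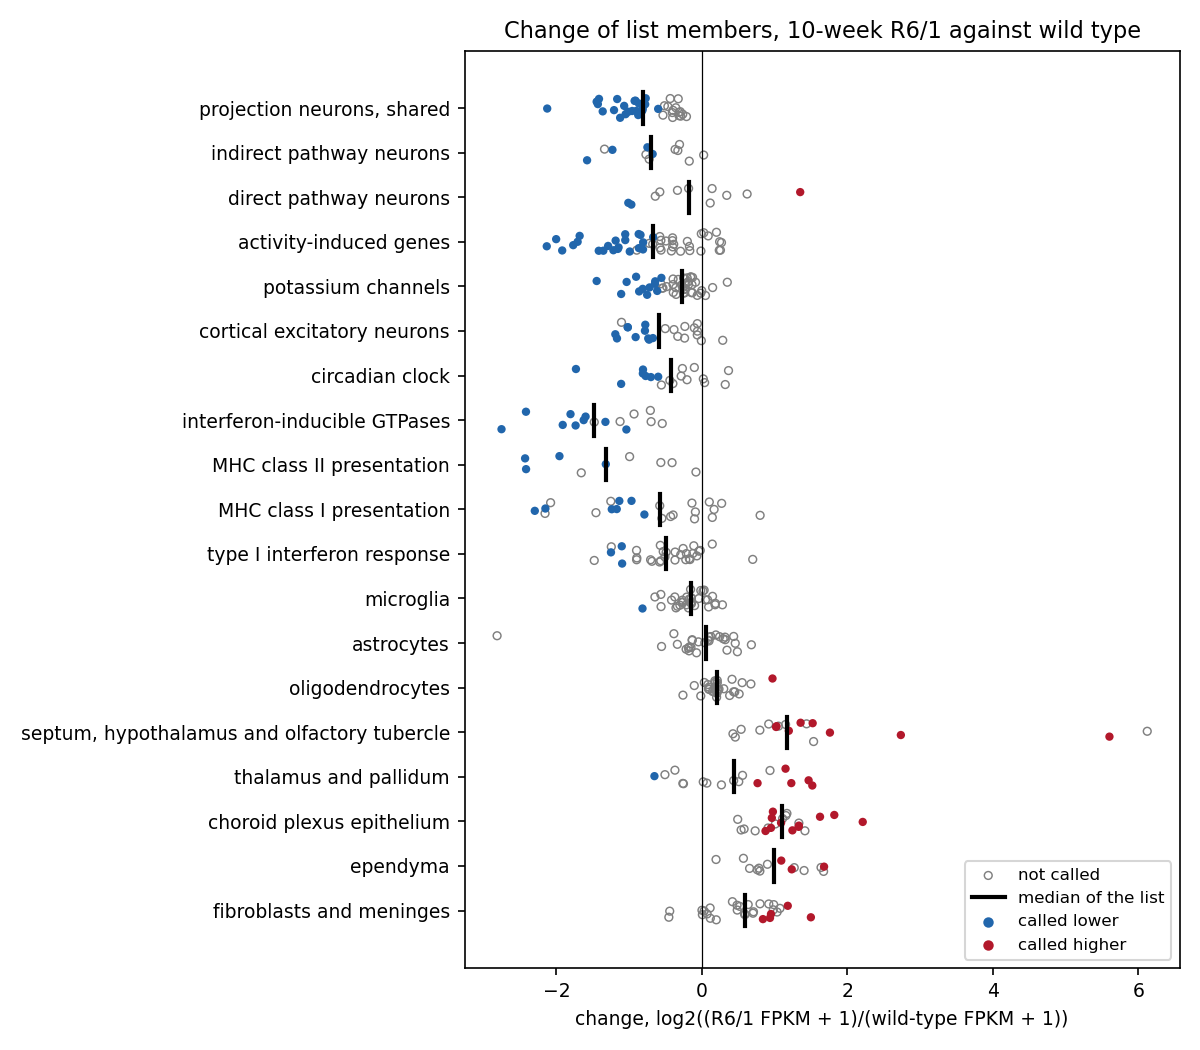
Each point is 1 compared gene of a list, placed by its change, log2((R6/1 FPKM + 1)/(wild-type FPKM + 1)), with called genes filled (blue lower, red higher), other genes open, and the list's median as a black bar. The medians run from -1.48 for the interferon-inducible GTPases to 1.17 for the septum and hypothalamus list.

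Immediate early and other activity-induced genes were lower as a group. Of 50 such genes 48 were compared, of which 22 fell and 0 rose, 41 had the lower value in R6/1, and the median change was -0.67. Arc, which controls the uptake of glutamate receptors at synapses, fell from 118 to 36.1 FPKM. Egr1 fell from 173 to 66.9 FPKM, Egr2 from 7.23 to 1.52, Junb from 85.2 to 34.3 and Fos from 34.9 to 17.1. These are transcription factors that neurons switch on within minutes of stimulation. Nr4a1, a nuclear receptor induced by dopamine and cAMP signals, changed by -1.42, and Npas4, a calcium-dependent factor, by -1.16. Klf2 and Cyr61, which are also induced in blood vessels, fell from 14.9 and 12.8 FPKM to 2.63 FPKM each. The phosphatases Dusp1 and Dusp6, which switch off MAP kinases, changed by -2 and -1.19. Not every member moved. Fosb (6.51 and 5.69 FPKM) and Nr4a3 (3.68 and 3.64 FPKM) did not pass, nor did Egr3 (25.1 and 16.7 FPKM) and Bdnf (7.15 and 5.16 FPKM). Egr4, at 39.5 and 24.3 FPKM, just missed (authors' deposited table, q = 0.0610).

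The factors upstream of these genes did not pass the threshold. Elk1 stood at 17.0 FPKM in wild type and 14.8 in R6/1 (authors' deposited table, q = 0.926), and Srf at 21.4 and 16.8 (authors' deposited table, q = 0.624). In the list of Elk-1, SRF and ERK pathway genes, 2 of 27 fell, 0 rose and the median change was -0.15. The genes that fell were Rasgrp1 (152 to 85.1 FPKM) and Rasgrp2 (56.0 to 27.3 FPKM), exchange factors that load Ras and Rap with GTP. Htt, the mouse huntingtin gene, had 11.1 FPKM in wild type and 11.3 in R6/1.

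Promoter sequences of the activity-induced genes that fell are shown for the elements at which SRF with Elk-1, and CREB, are known to act. They come from RefSeq windows of 250 bases before to 50 after a gene's start in GRCm38.p6, and 17 of the 22 genes had a window. Egr1 and Arc were among the genes without a window, and sequence outside the windows was not searched. The full cAMP response element TGACGTCA, searched on both strands, was in the windows of 3 of the 17 genes (17.6%) and of 2.03% of all 27025 genes with windows. Its first 5 letters alone, TGACG, were in 13 of the 17 (76.5%) and in 23% of all genes, and every full element holds this shorter one. The short form was also in 6 of 7 MHC class I genes that fell (85.7%). A CArG box, the core of the serum response element, was searched as CC, then 6 bases that are each A or T, then GG. It was in 1 of the 17 (5.88%), Egr2, against 1.81% of all genes. A match describes these letters only. The windows below are Egr2 at chr10:67537620-67537919 on the plus strand, 1 of 5 windows of that gene, with the CArG box in capitals, and Dusp1 at chr17:26508423-26508722 and Btg2 at chr1:134079106-134079405, both on the minus strand, with TGACGTCA in capitals. The third gene with the full element was Plk2, a kinase of active synapses that was picked after its values were seen, which fell from 114 to 61.9 FPKM.
Egr2: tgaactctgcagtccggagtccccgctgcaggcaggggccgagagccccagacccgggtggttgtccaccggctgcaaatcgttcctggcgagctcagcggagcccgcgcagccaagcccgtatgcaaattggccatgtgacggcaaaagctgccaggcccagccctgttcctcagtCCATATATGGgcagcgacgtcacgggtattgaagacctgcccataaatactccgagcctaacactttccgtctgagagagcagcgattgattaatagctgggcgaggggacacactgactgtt
Dusp1: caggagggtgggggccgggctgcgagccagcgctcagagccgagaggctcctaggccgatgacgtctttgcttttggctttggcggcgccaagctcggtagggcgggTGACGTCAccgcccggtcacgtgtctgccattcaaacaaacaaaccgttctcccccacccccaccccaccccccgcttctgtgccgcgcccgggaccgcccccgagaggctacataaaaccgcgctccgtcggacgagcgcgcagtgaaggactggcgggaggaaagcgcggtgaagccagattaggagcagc
Btg2: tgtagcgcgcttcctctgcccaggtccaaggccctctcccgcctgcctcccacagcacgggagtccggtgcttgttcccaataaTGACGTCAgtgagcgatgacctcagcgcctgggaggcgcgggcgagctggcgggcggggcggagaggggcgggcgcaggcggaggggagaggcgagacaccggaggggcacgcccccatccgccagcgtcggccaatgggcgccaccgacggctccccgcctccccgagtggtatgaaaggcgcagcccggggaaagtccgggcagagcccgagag

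Several genes of the circadian clock were lower too. Of 18 compared, core clock and output genes together, 7 fell and 0 rose, 14 had the lower value and 4 the higher, and the median change was -0.42. Dbp, a transcription factor driven directly by the clock, fell from 108 to 31.8 FPKM, though its row shares its position with another. Bhlhe40, a repressor induced by both clock and activity, fell from 47.6 to 21.5 FPKM and Per1 from 29.7 to 16.5. Nr1d1 and Nr1d2, the Rev-erb repressors, changed by -0.60 and -0.70 (authors' deposited table, q = 0.0457 and 0.00983). Cry2 (49.0 and 40.5 FPKM) and Csnk1d (49.7 and 50.4 FPKM) did not pass. The hour of tissue collection is not among the labels used here.

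Genes of membrane excitability and transmitter signalling fell in part, beside 2.51% of all rows called lower. These lists overlap those of projection neurons and their pathways, so some falls are counted again. Repeated ones are the channel genes Kcnh4, Kcnj4, Kcnab1 and Scn4b, and the calcium genes Itpka and Hpca. Adcy5, Ppp1r1b, Pde1b, Pde10a, Rgs4 and Rgs9 recur among G protein and cAMP genes. Drd1a, Drd2, Chrm4, Cnr1 and Adora2a recur among receptors. Of 46 potassium channel genes, 12 fell and 0 rose, with a median of -0.27. Kcnh4, a voltage-gated channel of striatal neurons, fell from 8.73 to 2.57 FPKM, Kcnj4, an inward rectifier, from 97.5 to 55.0, and Kcnv1, a silent subunit, from 23.5 to 11. Of 37 genes for sodium and calcium channels and calcium stores, 10 fell and 1 rose. Itpr1, the IP3 receptor that releases stored calcium, fell from 71.7 to 37.9 FPKM, and Atp2b1, a calcium pump of the plasma membrane, from 114 to 64.3. Of 41 genes for G protein and cAMP signalling, 9 fell and 0 rose, and of 30 receptors for monoamines, acetylcholine, opioids, adenosine and cannabinoids, 8 fell and 0 rose. Cnr1, the cannabinoid receptor, fell from 47.7 to 22.6 FPKM, and Hrh3, a histamine receptor, from 67.3 to 40.5 (authors' deposited table, q = 0.0115). Among receptors for the fast transmitters, 2 of 26 glutamate receptor genes and 1 of 15 GABA receptor genes fell. The GABA receptor gene was Gabrd, the delta subunit of receptors outside synapses, at 64.1 and 32.2 FPKM. Of 43 genes for synaptic vesicles and release, 9 fell and 1 rose. Among those that fell, the SNARE protein Snap25 had 1859 FPKM in wild type and 1084 in R6/1 (authors' deposited table, q = 0.0235). Syp, a protein of every synaptic vesicle, had 799 and 749 FPKM and did not pass.

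Markers of cortical excitatory neurons were lower in the R6/1 pool as well. Of 22 compared, 10 fell and 0 rose, 21 had the lower value, and the median was -0.59. Tbr1, a transcription factor of deep cortical layers, fell from 43.9 to 18.7 FPKM and Neurod6 from 45.0 to 21.7. Slc17a7, the vesicular glutamate transporter of cortical neurons, fell from 469 to 249 FPKM, and Nrgn, a calmodulin-binding protein of cortex and striatum, from 1312 to 787. The summed level of the list was 2791 FPKM in wild type and 1666 in R6/1, and 0 members were at 0 in either pool. Its part in the lower activity-induced, channel and synaptic genes was not tested. Among 22 interneuron genes, Vip fell from 24.8 to 8.62 FPKM, Cck from 562 to 304 and Npy from 346 to 203 (authors' deposited table, q = 0.00548 for Npy). Sst (799.6 and 561 FPKM) and Pvalb (108 and 109 FPKM) did not pass. Calb2, which encodes calretinin, rose from 25.7 to 75.3 FPKM.

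Genes induced by interferon were lower in R6/1 and include Igtp, the largest fall of the table. Of 20 interferon-inducible GTPases 15 were compared, of which 9 fell, 0 rose and all 15 had the lower value, with a median change of -1.48. Some members are listed through the wild-type pool only, among them Iigp1, Irgm2, Gbp5 and Gbp8. These counts and the median therefore describe the listed genes. Igtp, an immunity-related GTPase of intracellular defence, fell from 25.6 to 2.94 FPKM. Iigp1 fell from 7.36 to 0.565 FPKM, Irgm1 from 15.9 to 4.49 and Irgm2 from 5.22 to 0.652. The guanylate-binding protein Gbp2 fell from 9.40 to 2.12 FPKM and Gbp5 from 2.93 to 0.296 (authors' deposited table, q = 0.0404 for Gbp5). Gbp8 had 2.50 FPKM in wild type and was listed at 0 in R6/1. These families, and the MHC genes, hold near-identical copies, and reads that match several of them may have been split by the authors' counting.

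The promoters of these GTPases are shown because they share an element. A pair of GAAA repeats with 2 bases of any kind between them, found in interferon-stimulated response elements and searched on both strands, was in the windows of all 6 genes of the 9 that had a window, against 3.99% of all genes with windows. The letters TTCNNNGAA, the core of gamma-interferon activated sites, were in 3 of the 6 and in 9.55% of all genes. Igtp and Irgm2 hold both elements in a nearly identical stretch, so their matches are not separate instances. Among the MHC genes that fell and had a window, the repeat pair was in 2 of 7 class I and 0 of 2 class II genes. TTCNNNGAA was in 0 of these 7 and 0 of these 2. Igtp at chr11:58199306-58199605 and Irgm2 at chr11:58214727-58215026, neighbours on the plus strand, and Gbp2 at chr3:142620413-142620712, also on the plus strand, follow from GRCm38.p6, with the repeat pair or its reverse complement in capitals.
Igtp: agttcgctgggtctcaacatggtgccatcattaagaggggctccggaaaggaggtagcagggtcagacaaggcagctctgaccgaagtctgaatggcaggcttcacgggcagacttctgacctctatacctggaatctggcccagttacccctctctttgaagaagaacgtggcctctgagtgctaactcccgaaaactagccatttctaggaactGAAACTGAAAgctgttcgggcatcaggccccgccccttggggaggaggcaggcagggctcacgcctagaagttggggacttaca
Irgm2: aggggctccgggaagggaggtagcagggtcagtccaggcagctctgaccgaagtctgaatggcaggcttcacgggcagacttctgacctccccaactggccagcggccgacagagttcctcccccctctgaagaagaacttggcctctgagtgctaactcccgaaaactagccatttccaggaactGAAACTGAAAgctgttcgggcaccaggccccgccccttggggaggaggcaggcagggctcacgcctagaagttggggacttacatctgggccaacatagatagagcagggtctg
Gbp2: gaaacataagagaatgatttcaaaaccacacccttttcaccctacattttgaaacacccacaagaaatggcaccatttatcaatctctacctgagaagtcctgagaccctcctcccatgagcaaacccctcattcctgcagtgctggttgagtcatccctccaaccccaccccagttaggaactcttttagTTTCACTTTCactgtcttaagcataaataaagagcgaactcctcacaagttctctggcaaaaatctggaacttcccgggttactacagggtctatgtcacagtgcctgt

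Antigen presentation genes were also lower in R6/1. Of 14 MHC class II genes 9 were compared, of which 4 fell, 0 rose and all 9 had the lower value, with a median of -1.32. Here too a low gene may be listed because of 1 pool only, so the counts and median describe the listed genes. Cd74, the invariant chain that guides class II molecules, fell from 103 to 18.2 FPKM. The class II chains H2-Ab1 and H2-Aa fell from 45.5 to 7.70 and from 51.7 to 12.6 FPKM, and H2-Eb1 from 10.5 to 3.62 (authors' deposited table, q = 0.0203 for H2-Eb1). Ctss, the protease that degrades the invariant chain, had 108 and 72.7 FPKM and did not pass. Of 30 class I genes 23 were compared, of which 7 fell and 0 rose, with a median of -0.58. H2-D1 and H2-K1, the classical class I heavy chains, changed by -1.13 and -0.97, from 125 and 57.9 FPKM in wild type. B2m, their common light chain, fell from 224 to 129 FPKM. Psmb9, an immunoproteasome subunit, fell from 12.7 to 1.78 FPKM and Tap1, the peptide transporter, from 4.86 to 1.6 (authors' deposited table, q = 0.0300 and 0.0327). Psmb9 and Tap1 are transcribed in opposite directions from neighbouring starts, and their RefSeq windows overlap, at chr17:34187281-34187580 and chr17:34187306-34187605 in GRCm38.p6.

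In the broader type I interferon list of 52 genes 31 were compared, of which 3 fell and 0 rose, and the median was -0.49. Among them were Irf1, from 6.86 to 2.30 FPKM, and Ifit3, from 8.09 to 3.25 (authors' deposited table, q = 0.0135 and 0.0327 for Irf1 and Ifit3). Ifit1 (2.03 and 1.10 FPKM) and Ifitm3 (26.0 and 22.3 FPKM) did not pass. Of 25 complement and cytokine genes, C4b fell from 10.2 to 5.36 FPKM (authors' deposited table, q = 0.00773) and the B-cell chemokine Cxcl13 from 1.68 FPKM to a listed 0, and the other 23 did not pass. Of 42 microglial markers 34 were compared, of which 1 was called, C4b, which is also on the complement list, and the median was -0.15. Of the 34 microglial genes, 25 had the lower value in R6/1 and 9 the higher. Their summed level was 2417 FPKM in wild type and 2507 in R6/1, with 0 members at 0. Aif1, a calcium-binding protein of microglia, had 19.2 and 15.8 FPKM and did not pass. Of 39 lymphocyte and antibody genes 5 were compared. Cd4, which had 24.8 FPKM in uninjected wild-type striatum at 8 weeks, fell from 14.2 to 5.5 FPKM, and Ccl5 had 5.86 and 0.932 FPKM (authors' deposited table, q = 0.548). The part of other cell types in the interferon and MHC genes was not tested.

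The wild-type pool carried levels of these genes that the uninjected groups did not have. Cd74 had 1.94 FPKM in uninjected wild-type striatum at 8 weeks and 3.33 in R6/1 of that age, 2.09 and 2.05 at 4 weeks, and 2.65 and 4.59 in wild type and CHL2 at 1 year. Igtp lay between 1.73 and 2.74 FPKM in these 6 groups, against 25.6 and 2.94 in the injected pools. H2-D1 lay between 16.4 and 31.1 FPKM there, against 125 and 56.6. Thus the injected R6/1 pool was near the uninjected groups for Igtp but above them for Cd74 and H2-D1. The tables were normalised separately, so these levels are given side by side. Vector, age and library batch cannot be told apart between them.

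**Figure D3:**
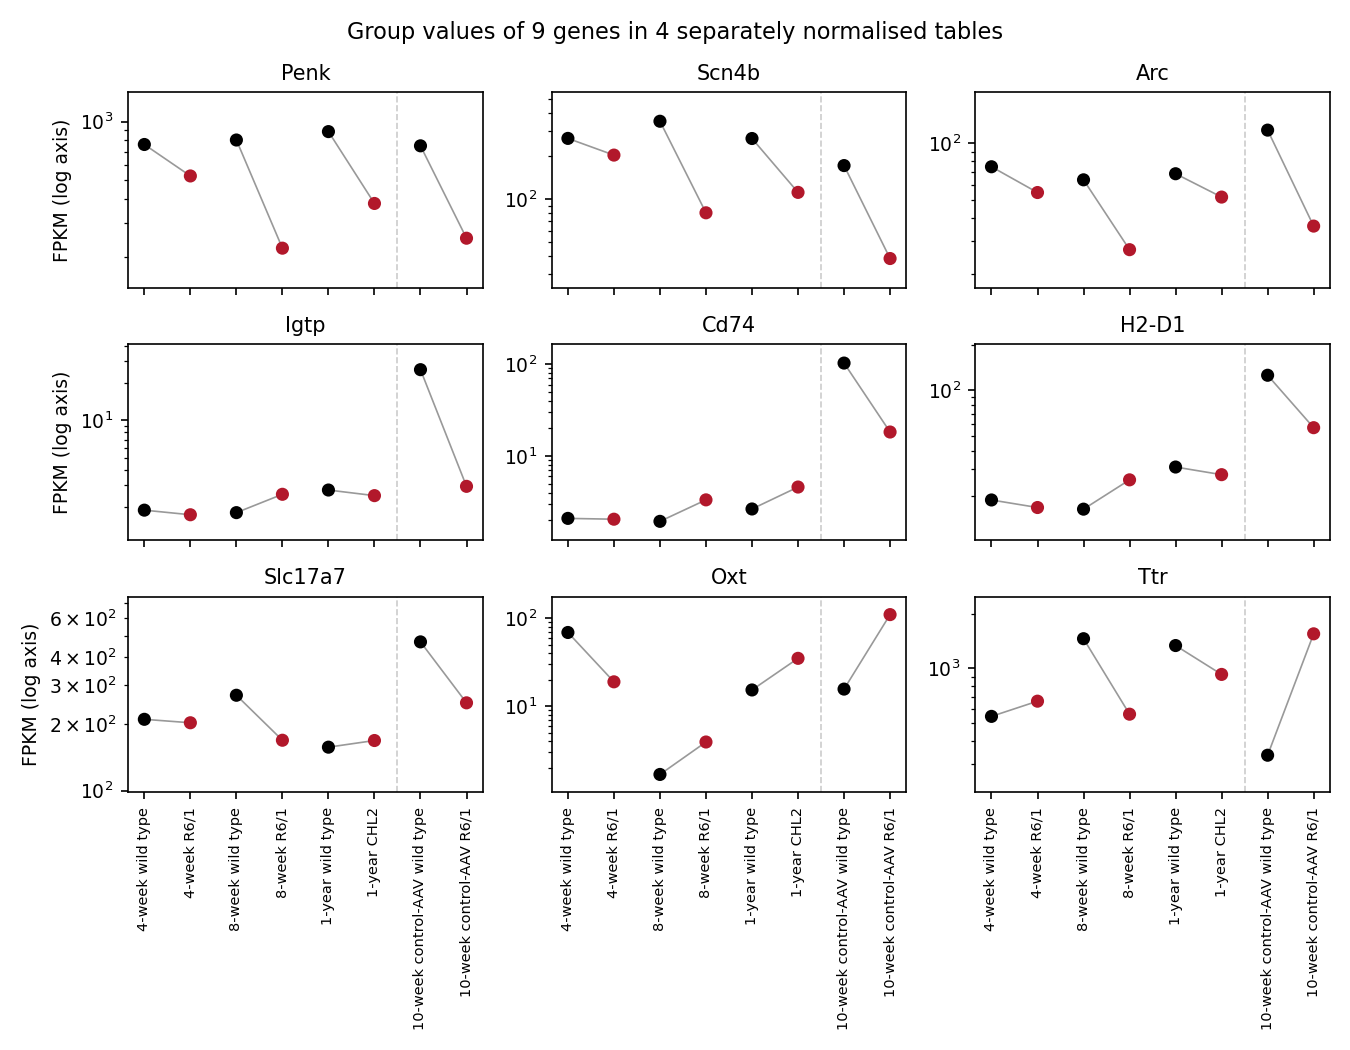
Deposited FPKM of 9 genes on log axes, 1 point per group, with the wild-type group in black and the R6/1 or CHL2 group in red, each pair joined by a line and the injected 10-week pair to the right of the dashed line. Penk and Scn4b are lower in the mutant group of each pair, Igtp is at 25.6 FPKM in the injected wild type and at 2.94 or less in the other groups plotted, and Oxt and Ttr change direction between pairs.

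Markers of several tissues that border the striatum were mostly higher in the R6/1 pool. Those of cortex, which also borders the striatum, were lower, as given above, and are not among the lists counted here. The 5 lists for septum with hypothalamus and olfactory tubercle, thalamus with pallidum, choroid plexus, ependyma, and meninges held 98 compared genes, and 91 of these had the higher value in R6/1. Of the 94 genes called higher, 31 were on these lists. Without their members, 63 genes were called higher and 325 lower. No value per library is at hand to show whether 1 library or both carried them, and their part in the other results was not tested.

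Hypothalamic and septal genes had the highest median of the 41 lists. Of 26 such genes 18 were compared, of which 8 rose, 0 fell and all 18 had the higher value, with a median of 1.17 and summed levels of 114 FPKM in wild type and 529.9 in R6/1. Low genes may be listed because of 1 pool only, as said above, so these counts and the median describe the listed genes. Pmch, the precursor of melanin-concentrating hormone in the lateral hypothalamus, rose from 1.25 to 108 FPKM (authors' deposited table, q = 0.0203). Oxt, the oxytocin precursor, rose from 15.7 to 109.8 FPKM, and Avp, its vasopressin neighbour on chromosome 2, from 38.2 to 99.3 (authors' deposited table, q = 0.00548 for Avp). Trh, which encodes thyrotropin-releasing hormone, rose from 5.78 to 22 FPKM, and the septal transcription factor Zic2 from 2.40 to 8.76. Hcrt, the orexin precursor, which was picked after its values were seen, had 0.246 and 85.8 FPKM and was not called (authors' deposited table, q = 0.825). Of 17 thalamic and pallidal genes, 5 rose and 1 fell, with a median of 0.44. In this list 12 genes had the higher value and 5 the lower. Its summed level was lower in R6/1, at 837 FPKM in wild type and 753 in R6/1. Prkcd, a protein kinase C of thalamic neurons, rose from 7.11 to 21.4 FPKM. Slc17a6, the vesicular glutamate transporter of thalamus and hypothalamus, rose from 7.73 to 19.5 FPKM, and the thalamic transcription factor Tcf7l2 from 1.99 to 5.63. Calb2, described above among the interneuron genes, is on this list too.

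Choroid plexus genes were higher in the R6/1 pool as well. Of 24 such genes 22 were compared, of which 11 rose, 0 fell and all 22 had the higher value, with a median of 1.10. Ttr, the thyroxine carrier secreted by this epithelium, rose from 333 to 1547 FPKM. Kcne2, a potassium channel subunit of its apical membrane, rose from 1.30 to 7.13 FPKM, the folate receptor Folr1 from 2.88 to 11 and Kl, the klotho gene, from 2.36 to 6.95 (authors' deposited table, q = 0.00983, 0.0188 and 0.00312). Enpp2, the enzyme that makes lysophosphatidic acid, rose from 149.7 to 292 FPKM. It was also the 1 gene called among 29 oligodendrocyte genes. Of 14 ependymal genes, 3 rose, led by Fam183b (6.53 to 23.1 FPKM, authors' deposited table q = 0.0369) and Foxj1, the regulator of motile cilia (3.35 to 9.23 FPKM, authors' deposited table q = 0.00548). Of 29 fibroblast and meningeal genes, 5 rose, among them Igf2 (12 to 35.7 FPKM) and Ptgds, a prostaglandin synthase of meninges and oligodendrocytes (662 to 1268 FPKM).

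Other genes that rose and were on none of these 5 lists included Gpx3, an extracellular glutathione peroxidase, from 15.2 to 39.9 FPKM. Hap1, a huntingtin-associated protein abundant in hypothalamus, rose from 79.5 to 152 FPKM. Cbln1, a synapse organiser, rose from 3.91 to 13.7 FPKM and Sncg, gamma-synuclein, from 8.46 to 25.8 (authors' deposited table, q = 0.0188 for Sncg). In all, 59 genes called higher and 193 called lower were on none of the 41 lists. Among the latter, Myl4, a myosin light chain, fell from 55.0 to 9.93 FPKM and Apold1, an immediate early gene of endothelium, from 8.06 to 1.20.

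Several cell types and housekeeping groups had few or no called genes. Over all rows 0.724% were called higher and 2.51% lower, so lists of these sizes would hold few calls at that share. Of 28 astrocyte genes 0 were called (median 0.06), and Gfap, the astrocyte filament that rises in reactive gliosis, had 80.0 and 98.2 FPKM. Oligodendrocyte genes had a median of 0.21, and Mbp, a myelin protein, stood at 2295 and 2597 FPKM without passing. By the authors' Cuffdiff q-value, 0 of 24 endothelial and mural genes, 0 of 13 oligodendrocyte precursor genes, 0 of 31 proteasome genes, 0 of 32 chaperone genes and 0 of 21 cholesterol synthesis genes were called. At an unadjusted p below 0.05 in the authors' deposited table these counts were 4, 1, 0, 2 and 4. The astrocyte genes had 5. Among all 12980 listed genes, 1386 had such a p. The endothelial and mural, cholesterol synthesis and astrocyte lists lay above that share. The oligodendrocyte precursor, proteasome and chaperone lists lay below it. Whether any list differed from that share was not tested. Of 74 genes for cytosolic ribosomal proteins 0 were called and 5 had such a p, although 64 had the higher value and the median was 0.29. Of the 21 cholesterol synthesis genes 19 had the lower value and 2 the higher, with a median of -0.25. The 74 nuclear genes of oxidative phosphorylation had 0 calls and 0 at an unadjusted p below 0.05. Such zeros do not show that the levels were equal, since the smallest change called anywhere in the table was 0.56 in size.

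Set beside uninjected R6/1 mice at 8 weeks, projection neuron genes had lower values at both ages, and the interferon and choroid plexus lists had medians of opposite sign. At 8 weeks, 0.789% of genes were called higher and 5.34% lower, and 12899 genes were listed in both tables, which share no library. Of 323 genes that fell at 10 weeks, 219 (67.8%) fell at 8 weeks, and these made up 30.8% of the 712 genes lower at 8 weeks. Of 92 genes that rose at 10 weeks, 20 (21.7%) rose at 8 weeks, which was 18.3% of the 109 higher there. Across 12861 genes the changes had a Pearson correlation of 0.42 and a Spearman correlation of 0.38, as a description. The genes are not independent, and the change had a Spearman correlation with transcript length of -0.06 at 10 weeks and -0.11 at 8 weeks.

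The projection neuron list had medians of -0.82 at 10 weeks and -0.95 at 8 weeks, and the activity-induced list -0.67 and -0.53. Scn4b changed by -2.13 and -2.11, Penk by -1.58 and -1.85, and Egr2 by -1.71 and -2.31. For Klf2 the values were -2.13 and -0.05, for Btg2 -1.77 and -0.37, and for Dusp1 -2 and -0.83. Cortical excitatory genes had medians of -0.59 and -0.39. The GTPase list had medians of -1.54 at 10 weeks and 0.15 at 8 weeks over the 12 genes in both tables. MHC class I had -0.55 and 0.21 over 21 genes, and class II -1.16 and 0.17 over 8 genes. Choroid plexus had 1.10 and -0.99 over 22 genes. Of the genes that fell at 10 weeks 2 rose at 8 weeks, among them H2-D1 (16.4 to 25.6 FPKM at 8 weeks). A further 15 genes rose at 10 weeks and fell at 8 weeks, among them Folr1 (13.6 to 5.37 FPKM at 8 weeks), Kl (16 to 7.68), Kcne2 (6.42 to 2.38) and Igf2 (26.2 to 18.0). The differences between the 2 ages were not tested, because the files hold 1 value per group.

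**Figure D4:**
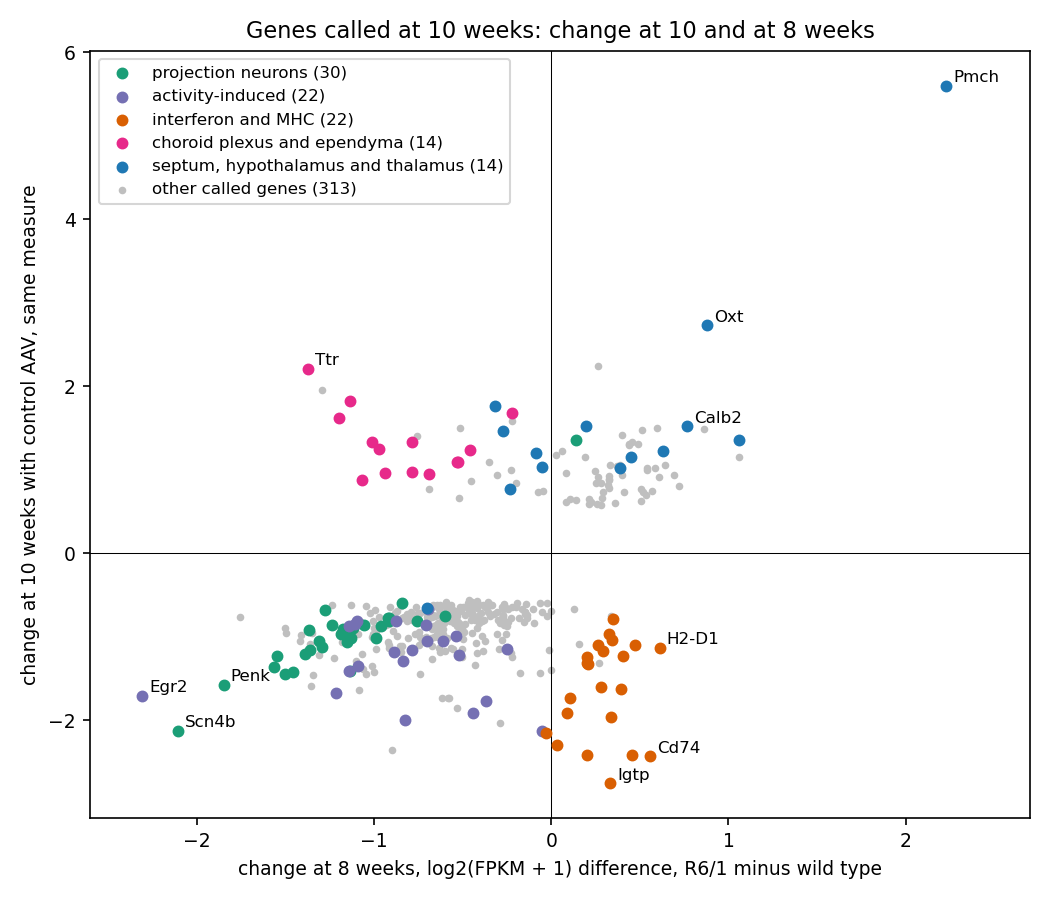
Each point is 1 gene called at 10 weeks and listed at 8 weeks, placed by its change at 8 weeks (x axis) and at 10 weeks with control AAV (y axis), both as log2(FPKM + 1) of R6/1 minus wild type, coloured by gene group. Projection neuron and activity-induced genes such as Scn4b and Egr2 lie low in both, interferon and MHC genes such as Igtp and Cd74 lie low at 10 weeks and to the right of 0 at 8 weeks, and choroid plexus genes such as Ttr lie high at 10 weeks and to the left.

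At 4 weeks, where 0.275% of genes were called higher and 0.193% lower in R6/1, 6 of the 323 genes that fell at 10 weeks (1.86%) also fell, which was 25.0% of the 24 genes lower at 4 weeks and listed in both tables. Another 11 genes rose at 10 weeks and were lower at 4 weeks, 12% of the 92 and 45.8% of the 24. They included Oxt (68.8 to 18.9 FPKM at 4 weeks), Trh (12 to 6.25), Zic1 (16.1 to 10.4), Zic2 (8.96 to 5.51) and Prkcd (14.8 to 7.61). Across 12870 genes the Pearson correlation with 4 weeks was 0.00, as a description. At 4 weeks the change ran with transcript length (Spearman 0.48 across genes), with a median length of 9097 bases for genes called higher and 2525 for genes called lower, and its part in these overlaps was not tested.

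In CHL2 knock-in striatum at 1 year, with 1.67% of genes called higher and 1.97% lower, 97 of the 323 genes that fell at 10 weeks also fell (30.0%, and 36.3% of the 267 lower in CHL2). Of the 92 that rose, 38 rose in CHL2 as well (41.3%, and 18.2% of the 209 higher there). Pmch had 3.07 FPKM in wild type and 53.2 in CHL2, Oxt 15.3 and 35, and Calb2 25.6 and 42.4. None of the genes that rose at 10 weeks was called lower in CHL2 by the authors' q-value. Of those that fell, 3 were called higher there, Cd74, Car10 and Fam19a1, the last 2 chosen after their values were seen. In the CHL2 table the change also ran with transcript length (Spearman 0.39 across genes, median lengths of 5120 bases for genes called higher and 2849 for genes called lower), and its part was not tested.

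The same control-AAV R6/1 libraries stand in the table against Elk-1 AAV, so the 2 comparisons are not independent. Over 12610 genes the log2(FPKM + 1) of these libraries was higher by a median of 0.031 in the second table, with a range from 0.000 to 0.036. In that table Igtp had 3.01 FPKM with control AAV and 11.6 with Elk-1 AAV, H2-D1 58.0 and 180, and Cd74 18.7 and 41.9. Oxt had 112 and 9.04 FPKM, Calb2 77.1 and 23.5, and Ttr 1585 and 2236. For the neuronal genes, Scn4b had 39.5 and 51.2 FPKM, Penk 256 and 289, and Egr1 68.5 and 78.9. The calls of the Elk-1 comparison are not used here, so none of these differences is given as passing the threshold. Whether Elk-1 AAV changed any of these genes was not tested. Thus the control-AAV R6/1 pool had the lower Igtp and H2-D1 values and the higher Oxt and Calb2 values against both the wild-type pool and the Elk-1 pool, each in its own table.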

How the data were processed

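The authors aligned and quantified reads with TopHat, Bowtie, Cufflinks and Cuffdiff on mm9, per the submitters' processing notes. Their versions, the annotation, strandedness and depth of each library were not given in the sources read. Libraries were made from total RNA with a TruSeq RNA kit, per the labels' protocols. The authors deposited 1 pooled FPKM per gene and group, a log2 fold change, a p-value and a q-value, and these q-values are the calls used here. Rows listed have an FPKM of at least 1.10 in 1 of the groups. A mean of 0.5 FPKM or more was required, with a pseudocount of 1 on the log2 scale, using Python 3.11.15, pandas 2.3.3, numpy 2.4.6 and matplotlib 3.10.9. No test was fitted here, since no value per library was in the table. The formula for the change returned the changes set in advance in simulated data without noise. That check follows from the formula and tests neither the calls nor the list counts. Named genes are key genes, the 15 largest rises and falls, up to 8 called and 4 uncalled members of each list, and the leading genes shared with or opposite to 8 weeks. The gene lists, motifs and named genes were chosen with earlier results of these data known. Of rows in the table, 11.7% share their position with another row. Some named genes are not reported here. Values were recomputed with other q thresholds, pseudocounts, filters and scalings.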

Additional observations from a re-analysis of the deposited data

How the results depend on the processing

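No paired analysis was possible because the deposited table holds 1 pooled value per group, so neither a replicate block nor leaving out a library could be run. At q below 0.01 the authors' calls were 49 higher and 215 lower, with 2 indirect pathway genes lower and 5 septal and hypothalamic genes higher, and 136, 9 and 7 genes were lower at both ages, higher at both ages, and higher at 10 but lower at 8 weeks. Without rows that share a position, 1 direct pathway gene was lower. With a pseudocount of 0.1 the medians were 1.76 (septum and hypothalamus), 1.69 (choroid plexus), -2.22 (GTPases), -0.79 (MHC class I) and -1.52 (MHC class II). With a mean FPKM of at least 2 they were 1.36, 1.24 and -1.74 for the first 3 of these. The medians of oxidative phosphorylation genes (0.01) and proteasome genes (-0.04) changed sign, to -0.0017 minus the median of all genes and to 0.023 when rescaled without small RNA rows. The median of sex-linked genes turned from -0.47 to 0.20 at a mean FPKM of at least 2, where fewer of them are compared. Of 205 list medians recomputed, 184 kept their sign and moved by no more than 0.1, 18 moved further and 3 changed sign. Of 1656 values of 336 named genes, 1565 moved by no more than 0.1, and the 91 others all moved with a pseudocount of 0.1. No called gene among these changed direction. The counts without the 5 neighbouring-tissue lists, which do not include cortex, or without the sex-linked list were added after seeing the data. Read depth is not known, which limits what can be said of low genes.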
